A study of Equus caballus with 34 samples.

Results

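The comparison covered here is that of granulosa cells from late dominant (LD) follicles with granulosa cells (GC) from early dominant (ED) follicles of the horse, across all genes on the array. Its arrays were chosen by their titles, 5 labelled GC LD and 5 labelled GC ED, which make 10 of the 34 arrays of the series. The remaining arrays hold preovulatory (PO) granulosa cells, 5 of which entered the fit to share its estimate of the spread, and theca wall (TW) at the same 3 stages. The labels give a cell type and a stage for each sample and no age, treatment or genotype, and all of the granulosa groups share the extraction of total RNA, amplification from an oligo(dT) primer and labelling with Cy3. Replicates are called biological in the design text, while the labels do not say which arrays came from 1 mare or from 1 follicle. The numbers of the arrays (GC LD 1 to GC LD 5) only name them. They do coincide with slides, since GC ED 1, GC LD 1 and GC PO 1 were on 1 slide, and likewise for the other numbers.

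Granulosa cells line the antrum of the follicle, convert theca androgens to estradiol through aromatase under FSH, secrete inhibins and divide while the follicle grows. The LH surge turns them towards ovulation and luteinisation: they leave the cell cycle, lose FSH receptor and aromatase, make EGF-like ligands, prostaglandins and a hyaluronan matrix, and raise the machinery of progesterone synthesis. The design text names the step from the early to the late dominant stage as 1 of its comparisons within a cell type.

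Levels below are log2 values of the processed signal relative to the 75th percentile of each array, so that a difference of 1 is a 2-fold difference, and differences are LD minus ED, each followed by its standard error (SE) from limma. Between 64.3% and 74.0% of spots on these 10 arrays were well above background, and 54 to 355 spots were saturated. A total of 24787 features were tested, each a named gene or a probe with no gene symbol, of which 9617 had a symbol. The median of all differences was -0.00, and it moved to -0.17 with another background correction (normexp).

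The 5 GC LD arrays lay at very different distances from the ED group, which bears on every value below. The share of features at least 2-fold from the ED mean was 32.7% on GC LD 1, 33.7% on GC LD 2 and 40.2% on GC LD 3. It was 10.7% on GC LD 4 and 8.79% on GC LD 5. Each ED array set against the mean of the other ED arrays had 11.0% to 13.7% of features that far away, so GC LD 4 and GC LD 5 lay below that range and the remaining LD arrays far above it. The PO arrays had 42.4% to 49.5%. Among the LD arrays themselves, the pair GC LD 4 and GC LD 5 had 17.5% of features at least 2-fold apart, inside the 15.8% to 21.6% of pairs of ED arrays, and GC LD 3 and GC LD 5 were furthest apart with 42.5%.

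**Figure D1:**
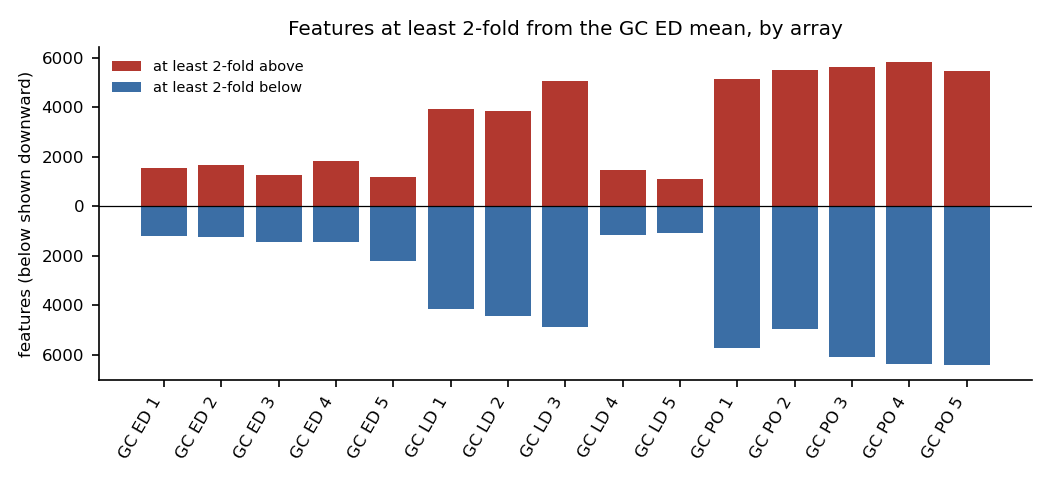
Number of features at least 2-fold above (upward bars) or below (downward bars) the mean of the GC ED arrays, for each of the 15 granulosa arrays; an ED array is set against the mean of the other ED arrays. GC LD 4 and GC LD 5 show 10.7% and 8.79% of features in all, within or below the ED arrays, and GC LD 1 to GC LD 3 show 32.7% to 40.2%.

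The spread within the LD group was larger than that within the ED group. The distance of an array, the root mean square over features of its deviation from the mean of the other arrays of its group, was 1.16 ± 0.18 (SD, n = 5) in LD and 0.80 ± 0.07 (SD, n = 5) in ED on the log2 scale. The difference of 0.36 became 0.10 with normexp. The comparison was taken up with the wide spread of the LD arrays already known, so these values are a description and no test is given. By feature, the SD was larger in LD for 18268 features (73.7%), with a median ratio of 1.51.

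Against this spread, 1 feature of 24787 (0.00403%) passed an adjusted p of 0.05 (limma, Benjamini-Hochberg) and it was higher at LD; none (0%) was called lower. At an unadjusted p under 0.05 there were 1927 higher features (7.77%) and 1788 lower ones (7.21%). In 353 features (1.42%) the values of the groups did not overlap, 180 with all LD arrays above all ED arrays (0.726%) and 173 with all below (0.698%). That split depended on the scaling: it was 153 above and 212 below with quantile normalization, 121 and 305 with median centring and 70 and 234 with normexp. The number of such features was 645, 992 and 1819 without GC LD 1, GC LD 4 and GC LD 5, and 683 and 865 without GC ED 1 and GC ED 5. Leaving out any array can only raise this number, so the rise as such carries no information. Leaving out GC LD 5 gave 1274 called features (5.14%), 625 higher (2.52%) and 649 lower (2.62%), and leaving out GC LD 4 gave 8; leaving out any other array gave 1. A fit on all 34 arrays, in which the narrower theca groups enter the estimate of the spread, called 1780.

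The called feature was a 60-base probe described as the 3' UTR of the mRNA of SOD2, the mitochondrial manganese superoxide dismutase, which turns superoxide into hydrogen peroxide. It lay at -7.88, -7.17, -7.05, -8.40 and -8.23 on the ED arrays and at -4.83, -4.01, -3.88, -5.22 and -4.39 on the LD arrays. All LD arrays were above all ED arrays, although the probe was well above background on 1 of 5 ED arrays. The difference was 3.28 ± 0.36 SE (limma adjusted p = 0.00484, n = 5 against 5).

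That call rests on 1 probe, whose reading on GC LD 5 was far from those of the probes most like it. The array design holds 17 probes described as SOD2, and 4 of them are the called probe moved along the sequence, sharing 57 to 59 of its 60 bases. On GC LD 1 to GC LD 4 these 5 probes read between -5.37 and -3.57. On GC LD 5 the called probe read -4.39 and the 4 shifted probes read -9.39 to -7.46, within the -9.57 to -5.85 that they had on the ED arrays. The 4 shifted probes, 3 of which were well above background on no ED array, had measured differences of 2.61 to 3.00 and limma adjusted p of 0.166 to 0.185 when every probe was tested as a feature of its own. The coordinates listed in the files run in the opposite order for these 5 probes and for the other 12.

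The other 12 probes were brighter on every array, and their readings of GC LD 5 lay inside the range of the ED arrays. Of these, 3 are printed as examples of the sequence that this brighter set of probes reads, with coordinates on chromosome 31 as listed in the files, whose genome build is not named. The first is at chr31:8525303-8525362 and the other two are both at chr31:8533066-8533125. The capital marks the base at which these probes differ (G57A, counted from the 5′ end of the first of them).
SOD2 probe 1: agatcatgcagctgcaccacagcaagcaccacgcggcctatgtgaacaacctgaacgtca
SOD2 probe 2: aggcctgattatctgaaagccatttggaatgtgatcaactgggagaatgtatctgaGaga
SOD2 probe 3: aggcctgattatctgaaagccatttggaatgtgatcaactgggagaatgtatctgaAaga
When every probe was tested as a feature of its own, the 12 probes had differences of 2.54 to 3.1, with SE of 0.65 to 0.75 and limma adjusted p of 0.165 to 0.182. The brightest of them, which stands for SOD2 as a gene and is not among those printed, lay at 1.34, 0.03, 0.14, -0.76 and 0.01 on the ED arrays and at 3.98, 3.40, 3.83, 2.22 and 0.02 on the LD arrays. Thus 4 of 5 LD arrays were above the ED range and GC LD 5 was inside it. Without GC LD 5 the difference of SOD2 was 3.20 ± 0.47 SE (limma adjusted p = 0.0042), against 2.54 ± 0.65 SE (adjusted p = 0.200) with all arrays. Both values come from the fit with 1 probe per gene. GC LD 5 is the LD array nearest to the ED mean, so the smaller p without it shows dependence on that array and adds no support.

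**Figure D2:**
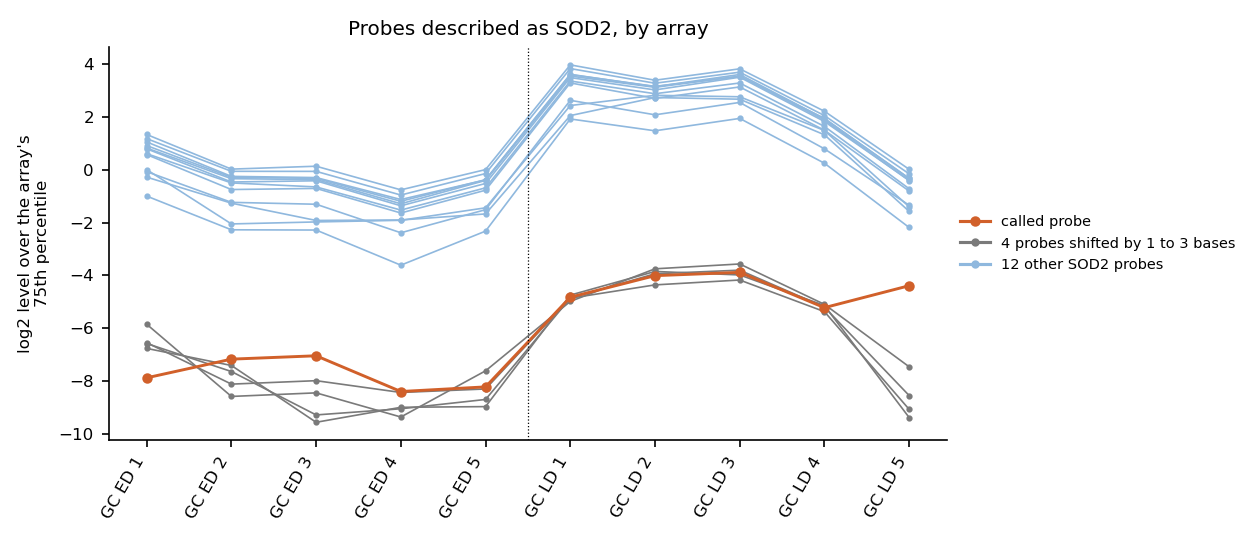
Levels (log2 over the 75th percentile of the array) of the 17 probes described as SOD2 on the 10 arrays: the called probe in orange, the 4 probes shifted against it in grey and the 12 other probes in blue. On GC LD 5 the called probe reads -4.39, while the 4 shifted probes read -9.39 to -7.46 and the 12 others lie at -2.19 to 0.02, inside their ED range.

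Among genes with a symbol, those with the smallest p that were higher at LD were led by PCOLCE2, which enhances the trimming of procollagen. PCOLCE2 lay at -5.08, -5.66, -5.85, -7.54 and -5.52 on the ED arrays and at 1.59, 3.13, 2.43, -1.56 and -3.72 on the LD arrays. All LD arrays were above all ED arrays, with GC LD 4 and GC LD 5 nearest to them. Its difference was 6.30 ± 1.04 SE (limma adjusted p = 0.166), and 1 other probe gave 5.81.

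CAV1, the gene of caveolin-1, the coat protein of caveolae, lay at -0.89, -0.12, -0.97, -0.88 and -2.07 on the ED arrays and at 4.67, 4.45, 4.25, 0.87 and 0.62 on the LD arrays. The groups did not overlap, and GC LD 1 to GC LD 3 were near the PO mean of 4.20. The difference was 3.96 ± 0.74 SE (limma adjusted p = 0.166), and 4 other probes gave 4.02 to 4.80. Neurotensin (NTS), a secreted peptide, lay at -5.01, -8.80, -5.98, -7.20 and -5.87 on the ED arrays and at -1.52, 4.48, 5.18, -2.95 and -3.33 on the LD arrays, a difference of 6.95 ± 1.48 SE with GC LD 2 and GC LD 3 near the PO mean of 4.82.

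PTX3, the pentraxin that cross-links the hyaluronan matrix of the cumulus, lay at -3.35, -3.05, -6.23, -3.75 and -4.89 on the ED arrays and at 5.29, 5.50, 4.08, 1.26 and -3.73 on the LD arrays. GC LD 5 was inside the ED range and the other 4 LD arrays above it, so that the difference was 6.73 ± 1.37 SE with all arrays (limma adjusted p = 0.166) and 8.28 without GC LD 5 (adjusted p = 0.000864). Leaving out the lowest LD array can only widen this difference, so the second p adds no support. NFKBIA, the inhibitor that holds NF-kappa B in the cytoplasm, lay between -0.11 and 0.86 on the ED arrays and at 4.17, 2.58, 3.31, 1.95 and 1.29 on the LD arrays. The NFKBIA groups did not overlap, and 5 other probes gave differences of 2.27 to 2.46 beside the 2.29 ± 0.47 SE of the probe used.

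The other genes among the 12 higher ones with the smallest p all had a limma adjusted p of 0.166. They were S100A12, a calgranulin of myeloid cells (difference 6.41, with 4 of 5 LD arrays above the ED range), TREM1, a myeloid receptor, LYN, a Src-family kinase (3.96), ASPHD1 (4.18), ARID5B, a chromatin regulator (2.45), CNKSR2, a scaffold of Ras signalling (2.14), and MXD1, a MAX-binding repressor of MYC targets. A gene that is not well above background on any array of a group has only a bound there, taken on each array as the higher of its own signal and the lowest signal counted as well above background. TREM1 was below background on all ED arrays in this sense and was at least 4.21-fold higher. MXD1 was well above background on no ED array and on 2 LD arrays, which gives at least 1.37-fold, and with normexp its measured difference was -0.12. S100A12 lay at 1.99, 2.13 and 2.25 on GC LD 1 to GC LD 3, at -2.88 on GC LD 4 and at -6.40 on GC LD 5, against -8.16 to -5.63 on the ED arrays.

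The 12 lower genes with the smallest p shared that adjusted p and were mostly faint. AURKC, an Aurora kinase known from meiosis, was among the brighter ones at -0.34, 0.64, 1.24, 0.49 and 1.04 on the ED arrays and -1.97, -0.57, -1.44, -0.67 and -0.66 on the LD arrays. Its groups did not overlap, and the difference was -1.67 ± 0.35 SE (limma adjusted p = 0.166). PRRC1 (-1.20) and AKR7A2, an aldo-keto reductase (-1.45), also had all 5 LD arrays below all ED arrays. SLC25A35, a mitochondrial carrier, had a difference of -1.96 with 4 of 5 LD arrays below the ED range.

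Of the faint genes, PANX3, a pannexin channel, was well above background on all ED arrays and on no LD array, which makes it at least 1.84-fold lower. DDX11, a helicase of sister chromatid cohesion, had a difference of -1.61, ZNF630 -2.28 and DNAAF8, an assembly factor of dynein arms, -2.23, each with all 5 LD arrays below the ED range. HTR1F, a serotonin receptor (-3.09), CLHC1 (-2.51), CD22, a lectin of B cells (-2.71), and INO80D, a subunit of a chromatin remodeller (-1.90), had 4 of 5 LD arrays below it.

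**Figure D3:**
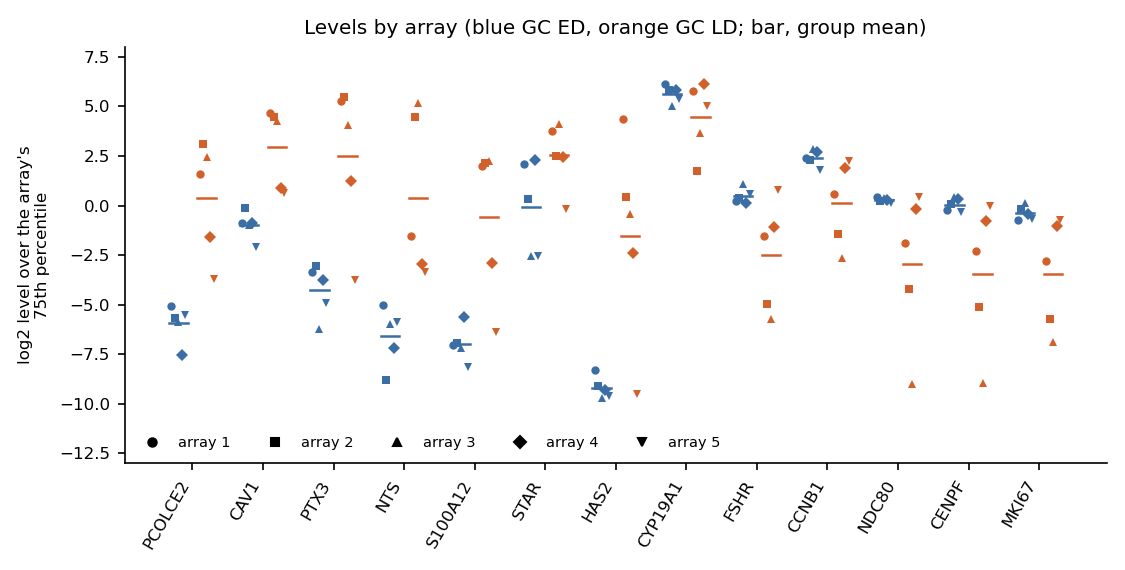
Levels (log2 over the 75th percentile of the array) of 13 genes named in the text on the 5 GC ED arrays (blue) and the 5 GC LD arrays (orange); symbols give the array number and bars the group means. In the genes of higher LD mean, GC LD 5 lies inside or nearest to the ED range, as it does for NDC80, CENPF and MKI67 among those of lower LD mean.

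The ovulatory cascade, a list of 32 genes of which 28 were tested, had a median difference of 1.78 (0.71 with normexp), against -0.00 over all features. None of its members passed the adjusted threshold; 13 had an unadjusted p under 0.05 and a higher LD mean, and none a lower one. Over all features 7.77% were higher and 7.21% lower at that p, and the counts of the lists below stand beside these shares. Its median deviation from the ED mean was 3.73 on GC LD 1, 1.28 on GC LD 2, 3.18 on GC LD 3, 1.09 on GC LD 4 and -0.31 on GC LD 5, while the ED arrays ranged from -0.50 to 0.40. GC LD 5 was inside that range and the remaining LD arrays above it. Without GC LD 5, 12 members were called higher and none lower, against 2.52% and 2.62% of all features. Since GC LD 5 is the LD array at the ED level in this list, that count shows dependence on it and adds no support.

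HAS2, the synthase that makes hyaluronan, was below background on all ED arrays, where it read -9.69 to -8.28. It lay at 4.35, 0.43, -0.45, -2.41 and -9.50 on the LD arrays, well above background on 4 of them, which makes it at least 45.7-fold higher (limma adjusted p = 0.166). GC LD 5 alone read as the ED arrays did. TNFAIP6, which loads heavy chains onto hyaluronan, lay at 3.79, -0.81, 0.11, -1.08 and -6.57 on the LD arrays against a range of -7.34 to 0.13 on the ED arrays, where GC ED 3 stood at the top; 1 of 5 LD arrays was above the range. VCAN, the proteoglycan versican, lay at 4.79 to 5.39 on the ED arrays and at 5.43, 3.56, 1.51, 4.85 and 4.36 on the LD arrays, with a difference of -1.12 ± 0.57 SE (adjusted p = 0.370).

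The EGF-like ligands, which carry the LH signal from mural to cumulus cells, were highest on GC LD 1. EREG (epiregulin) lay at 4.36, -1.69, -3.23, -1.17 and -6.65 on the LD arrays and at -9.16 to -5.70 on the ED arrays, a difference of 6.02 ± 1.58 SE (limma adjusted p = 0.200). AREG (amphiregulin) lay at 0.33, -5.43, -3.87, -5.38 and -9.70 on the LD arrays and was below background on all ED arrays, which gives at least 4.67-fold. For both, GC LD 5 was inside or below the ED range and the other LD arrays were above it.

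Proteases of the ovulatory list were also highest on GC LD 1 or GC LD 3. PLAT, tissue plasminogen activator, lay at 5.52, 0.03, -2.26, -0.67 and -6.45 on the LD arrays and at -7.42 to -4.70 on the ED arrays (difference 5.39 ± 1.51 SE, limma adjusted p = 0.200). ADAMTS1, which cleaves versican, lay at 3.55, -1.99, -0.60, -0.72 and -3.80 on the LD arrays and at -5.33 to -2.06 on the ED arrays (3.12 ± 1.11 SE, adjusted p = 0.238). PLAU, urokinase, had a difference of 1.47 ± 1.1 SE, with 2 of 5 LD arrays above the ED range and a PO mean of 3.37.

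The prostaglandin synthase PTGS2 and the progesterone receptor PGR gave different values from different probes. The brightest PTGS2 probe had a difference of -0.09 ± 0.89 SE, and its 2 other probes had 0.25 and 2.43; its PO mean was 3.09. PGR lay at 3.16, -1.70, -2.0, -0.06 and -0.28 on the LD arrays and at -0.77 to -0.27 on the ED arrays, so that GC LD 1 was the highest and GC LD 2 and GC LD 3 were below the ED range; its other probe gave 1.44. RUNX2, a transcription factor induced by LH, had a difference of 0.01 at its probe of highest mean and 0.88 to 1.79 at 5 others, and RUNX1 had 0.12. HPGD, which breaks down prostaglandins, read below background on all ED arrays and at -1.44, -3.20, -4.74, -6.84 and -9.35 on the LD arrays, at least 3.77-fold higher (limma adjusted p = 0.201). The prostaglandin list as a whole had a median of 0.47, which was -0.11 with normexp, with 2 of 14 members higher at an unadjusted p under 0.05.

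Immediate early and stress genes had a median of 1.40, which was 0.44 with normexp and 0.78 without GC LD 1. At an unadjusted p under 0.05, 11 of 22 members were higher, against 7.77% of all features, and none lower. The median deviation was 3.85 on GC LD 1 and 0.80, 1.49, 0.65 and -0.36 on GC LD 2 to GC LD 5, against -0.44 to 0.68 on the ED arrays. FOSL2, an AP-1 subunit, lay at 0.45, -2.42, -0.88, -4.04 and -5.76 on the LD arrays and at -5.99 to -5.07 on the ED arrays (3.15 ± 0.84 SE, limma adjusted p = 0.200). JUNB, its partner, lay at 2.99, 1.34, -0.33, -1.17 and -3.84 on the LD arrays and at -4.04 to -2.28 on the ED arrays (2.95 ± 0.98 SE, adjusted p = 0.221). MAFF, a small MAF factor, was at least 2.60-fold higher, and JUN had a difference of 0.91 ± 0.31 SE.

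Steroid synthesis had a median of -0.01 over 24 genes, with 4 higher and 2 lower at an unadjusted p under 0.05. Its members differed in direction. STAR, which carries cholesterol into the mitochondrion, lay at 2.10, 0.34, -2.56, 2.28 and -2.54 on the ED arrays and at 3.74, 2.52, 4.09, 2.47 and -0.16 on the LD arrays. The ED arrays were themselves wide apart, 4 of 5 LD arrays were above all of them, and the difference was 2.61 ± 1.06 SE (limma adjusted p = 0.280; 3 other probes 2.87 to 3.77). FDX1, the ferredoxin that passes electrons to mitochondrial P450 enzymes, lay at 1.17 to 3.1 on the ED arrays and at 5.65, 5.24, 5.77, 3.24 and 1.94 on the LD arrays (2.29 ± 0.62 SE, adjusted p = 0.200). CYP11A1, which cuts the cholesterol side chain, ranged from 0.85 on GC LD 2 to 5.32 on GC LD 3, on both sides of the 3.06 to 3.86 of the ED arrays.

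On the estrogen side, HSD17B1, which makes estradiol from estrone, lay at 3.31, 3.63, 3.21, 4.01 and 0.94 on the ED arrays and at -1.34, -5.22, -6.27, 1.79 and 2.52 on the LD arrays. GC LD 1 to GC LD 3 were below all ED arrays, and GC LD 4 and GC LD 5 were inside the ED range. The difference was -4.72 ± 1.40 SE (limma adjusted p = 0.202), the lowest among the genes of the granulosa list. POR, the reductase that feeds microsomal P450 enzymes, lay at 5.57 to 6.18 on the ED arrays and at 4.02, 2.12, 2.82, 6.02 and 5.28 on the LD arrays (-1.80 ± 0.59 SE, adjusted p = 0.220).

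CYP19A1, the gene of aromatase, was saturated on 4 ED and 2 LD arrays at its brightest probe, which gave a difference of -1.15 ± 0.65 SE. Its other 9 probes gave -2.65 to -2.29, with SE of 1.15 to 1.30 and limma adjusted p of 0.318 to 0.360, and 1 of them was saturated on 1 ED array. At the brightest probe the LD arrays read 5.80, 1.76, 3.64, 6.15 and 5.03. HSD3B2 was saturated on all 10 arrays, so no fold can be given. The inhibin subunits INHA and INHBA were saturated on all ED arrays and on 3 and 4 LD arrays, so that their differences of -0.11 and -0.14 are set by the limit of the scanner; INHA had no value on GC LD 4. FST, the gene of follistatin, was saturated on all ED arrays and 1 LD array, so its measured difference of -1.34 ± 0.73 SE (adjusted p = 0.399) is likewise limited; the LD arrays read 5.95, 3.29, 1.64, 6.18 and 5.26.

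FSHR, the receptor of follicle-stimulating hormone, lay at 0.24, 0.39, 1.09, 0.11 and 0.60 on the ED arrays and at -1.55, -4.95, -5.71, -1.08 and 0.80 on the LD arrays. GC LD 5 was inside the ED range and the other 4 LD arrays were below it, and the difference was -2.98 ± 1.15 SE (limma adjusted p = 0.263). LHCGR, the receptor of luteinizing hormone, had a difference of -0.53 ± 0.69 SE (adjusted p = 0.729), with 1 LD array above and 1 below the ED range. INHBB had -2.07 ± 1.10 SE and ESR1, an estrogen receptor, -1.29 ± 0.55 SE, with -0.75 to -0.54 at its 5 other probes. The list of gonadotropin, inhibin and hormone receptor genes had a median of -0.14 with 2 of 20 lower and none higher at an unadjusted p under 0.05, a share near the 7.21% of all features that were lower.

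Cholesterol synthesis and uptake had a median of 0.47, with 27 of 31 members above 0, 8 higher at an unadjusted p under 0.05 and none lower. HSD17B7 lay at 4.46, 2.96, 3.94, 1.75 and 1.09 on the LD arrays and at 0.90 to 1.63 on the 4 ED arrays with a value (1.51 ± 0.56 SE, limma adjusted p = 0.255). NSDHL, another enzyme of the last steps, had 1.09 ± 0.35 SE, and SCARB1, the receptor that takes up cholesterol from HDL, lay at 0.65, 1.29, 2.85, -0.29 and -1.03 on the LD arrays against -2.59 to -0.07 on the ED arrays (1.75 ± 0.63 SE). The insulin-like growth factor list had a median of -0.23 (0.10 without GC LD 2); IRS2, an adapter of the insulin receptor, was at least 2.84-fold higher and IGFBP3 had 1.92 ± 0.66 SE (adjusted p = 0.228).

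The summed signal of 17 granulosa markers, in units of the 75th percentile, was 259 to 421 on the ED arrays and 172 to 450 on the LD arrays. It was 46.2 to 125 on the TW ED arrays and 47.9 to 111 on the TW LD arrays. All 10 granulosa arrays were thus above these theca wall arrays by the sum. Saturated genes such as INHA and INHBA enter it at the limit of the scanner, divided by the 75th percentile of the array. The sum can thus understate a fall. Its differences between arrays can also follow that percentile, which was 869 on GC ED 1 and 1718 on GC LD 5. The median of this list was -1.15 (-0.64 without GC LD 3), and by array it deviated by -0.17, -2.07, -2.06, 0.10 and -0.07, so that GC LD 2 and GC LD 3 stood apart. At an unadjusted p under 0.05, 4 of 17 were lower and none higher. AMHR2, the receptor of anti-Müllerian hormone, lay at -1.11 to -0.56 on the ED arrays and at -5.01, -4.55, -3.63, -0.80 and -0.66 on the LD arrays (-2.12 ± 0.71 SE, limma adjusted p = 0.221). NR5A2, a nuclear receptor of granulosa cells, had -0.04 ± 0.33 SE. In bulk RNA, fewer cells of a type and less RNA per cell cannot be told apart.

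Markers of other cells differed between single LD arrays. The summed signal of 21 endothelial markers was 0.269 to 0.501 on the ED arrays and 2.74, 1.01, 0.738, 0.866 and 0.358 on the LD arrays, against 7.19 to 17.6 on the TW ED arrays; TEK, EMCN and ESAM were well above background on none of the 10 arrays. The 18 smooth muscle and pericyte markers summed to 2.01 to 9.72 on the ED arrays and to 6.31, 16.6, 47.1, 3.83 and 3.48 on the LD arrays, with MYH11 never well above background. Their sum was 18.7 to 51.5 on the TW ED arrays, a range that held GC LD 3. The 30 leukocyte markers summed to 4.41 to 9.08 on the ED arrays and to 8.46, 4.91, 18.2, 5.17 and 4.91 on the LD arrays, with CD79B and CCR7 well above background on none of the 10 arrays (and on 4 and 6 of the 19 theca wall arrays) and MS4A1, CD53, LAPTM5 and CORO1A on all 10. The leukocyte sum was 13.3 to 23.9 on the TW ED arrays, and GC LD 3 was inside that range too. Theca markers summed to 25.1 to 76.3 on the ED arrays and to 111, 16.7, 39.2, 76.2 and 23.3 on the LD arrays, against 250 to 358 on the TW ED arrays. On the PO arrays the sums were 0.877 to 1.33 (endothelial), 11.7 to 27.8 (smooth muscle and pericyte), 6.81 to 21.3 (leukocyte) and 12.9 to 50.5 (theca). GC LD 3 was inside the PO range for leukocyte markers and above it for smooth muscle markers. GC LD 1 was above the PO range for endothelial and theca markers. By summed signal, GC LD 1 was thus highest in endothelial and theca markers and GC LD 3 in smooth muscle and leukocyte markers. By the median deviation of the list, smooth muscle and pericyte markers were highest on GC LD 2 (1.92, against 1.03 on GC LD 3), and the other 3 lists on the same array as by their sum; their part in the values above was not tested.

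Members of 1 list did not all have the same array at the top. Of the 28 leukocyte markers tested, 7 were below 0, and 5 were higher and 2 lower at an unadjusted p under 0.05. CD14, the lipopolysaccharide co-receptor of monocytes, lay at 0.56, -0.30, 1.85, -2.37 and -3.09 on the LD arrays and at -4.42 to -2.34 on the ED arrays (2.85 ± 0.78 SE, limma adjusted p = 0.200). CD3D, a chain of the T cell receptor complex, had -1.47 ± 0.49 SE (adjusted p = 0.222). CNN1, a calponin of smooth muscle, was below background on all ED arrays and lay at -1.42, -3.90, 1.02, -6.47 and -9.59 on the LD arrays, at least 7.77-fold higher. TAGLN, a smooth muscle actin-binding protein, had 2.19 ± 0.78 SE, and S1PR1, a sphingolipid receptor of endothelium, 2.44 ± 0.60 SE with 4 of 5 LD arrays above the ED range. RAMP2, another endothelial marker, was highest on GC LD 3 (-2.78), and HHIP, of the theca list, on GC LD 2 (-3.74). Red blood cell and oocyte genes had medians of 0.58 and 0.22 over 4 tested genes each.

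Genes of cell division were lower on GC LD 1, GC LD 2 and GC LD 3 and near the ED level on the remaining LD arrays. The kinetochore and centromere list had a median of -2.17 (-1.36 with normexp and -1.39 without GC LD 3), with all 32 tested members below 0, 27 lower at an unadjusted p under 0.05 and none called. By array its median deviation was -2.03, -2.93, -5.32, -0.64 and -0.03, against -0.64 to 0.41 on the ED arrays. The lists of the spindle, centrosome and cytokinesis (median -2.28, 27 of 30 lower at an unadjusted p under 0.05), of the spindle assembly checkpoint with regulators of the anaphase-promoting complex (-2.22, 20 of 23) and of chromosome condensation (-1.76, 12 of 13) had the same order of arrays, GC LD 3 lowest and GC LD 5 highest. Without GC LD 3 the checkpoint and condensation medians were -1.36 and -1.14. No member of these lists was called with all arrays. Without GC LD 5, 14 of 32, 13 of 30, 11 of 23 and 8 of 13 members were called lower, against 2.62% of all features. In these lists GC LD 5 is the LD array nearest to the ED level, so the counts show dependence on it and add no support.

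NDC80, the kinetochore protein that grips microtubules, lay at 0.43, 0.23, 0.39, 0.26 and 0.15 on the ED arrays and at -1.88, -4.21, -9.02, -0.15 and 0.41 on the LD arrays. GC LD 5 was inside the narrow ED range, GC LD 3 was not well above background, and the difference was -3.26 ± 1.30 SE (limma adjusted p = 0.275). CCNB1, cyclin B1, lay at 2.42, 2.28, 2.84, 2.70 and 1.81 on the ED arrays and at 0.57, -1.42, -2.66, 1.88 and 2.26 on the LD arrays, a difference of -2.28 ± 0.94 SE (adjusted p = 0.285).

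MKI67, the proliferation mark Ki-67, lay at -0.72, -0.15, 0.11, -0.41 and -0.66 on the ED arrays and at -2.79, -5.70, -6.90, -1.01 and -0.74 on the LD arrays. All LD arrays were below all ED arrays, GC LD 5 by the least, and the difference was -3.06 ± 0.96 SE (limma adjusted p = 0.213). TTK, the checkpoint kinase, had -3.11 ± 0.87 SE, and SGO2, which guards centromere cohesion, -2.60 ± 0.75 SE, each with 4 of 5 LD arrays below the ED range. AURKB, the kinase of the chromosomal passenger complex, lay at -1.88, -3.96, -3.72, -0.55 and 0.34 on the LD arrays and at -0.16 to 0.71 on the ED arrays (-2.35 ± 0.73 SE, adjusted p = 0.213).

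DNA replication genes had smaller differences than those of mitosis. The list of origin and fork proteins had a median of -1.15, with all 38 members below 0 and 29 lower at an unadjusted p under 0.05. By array the deviations were -1.69, -1.72, -2.17, -0.57 and -0.30, against -0.61 to 0.53 on the ED arrays, so that GC LD 1 to GC LD 3 were closer to each other than in the kinetochore list. MCM6, a subunit of the replicative helicase, lay at 2.34 to 3.36 on the ED arrays and at 0.42, 1.06, 0.45, 2.13 and 2.31 on the LD arrays, all below the ED range (-1.52 ± 0.37 SE, limma adjusted p = 0.198). PCNA, the sliding clamp, had -0.71 ± 0.29 SE, and CLSPN, the checkpoint adapter claspin, -3.19 ± 0.83 SE with well above background readings on 2 of 5 LD arrays.

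Nucleotide supply with histone chaperones had a median of -1.23 (-0.77 without GC LD 3; 10 of 15 lower at an unadjusted p under 0.05) and homologous recombination with replication stress repair -1.59 (-0.89 with normexp; 18 of 20). The control of the G1 to S step had a median of -0.52 over 28 genes, with 3 higher and 4 lower. In it, E2F8, a repressor of E2F targets, had -3.15 ± 0.93 SE and FOXM1, which drives genes of mitosis, -2.54 ± 0.76 SE (limma adjusted p = 0.202 and 0.203). GADD45A, a stress-induced growth arrest gene, had 2.15 ± 0.79 SE, CDKN1A, the inhibitor p21, 0.90 ± 0.58 SE (-0.19 with normexp), CDKN1B, the inhibitor p27, -0.49 ± 0.31 SE, and the D cyclins CCND1 and CCND2 0.36 ± 0.40 SE and -0.54 ± 0.40 SE.

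**Figure D4:**
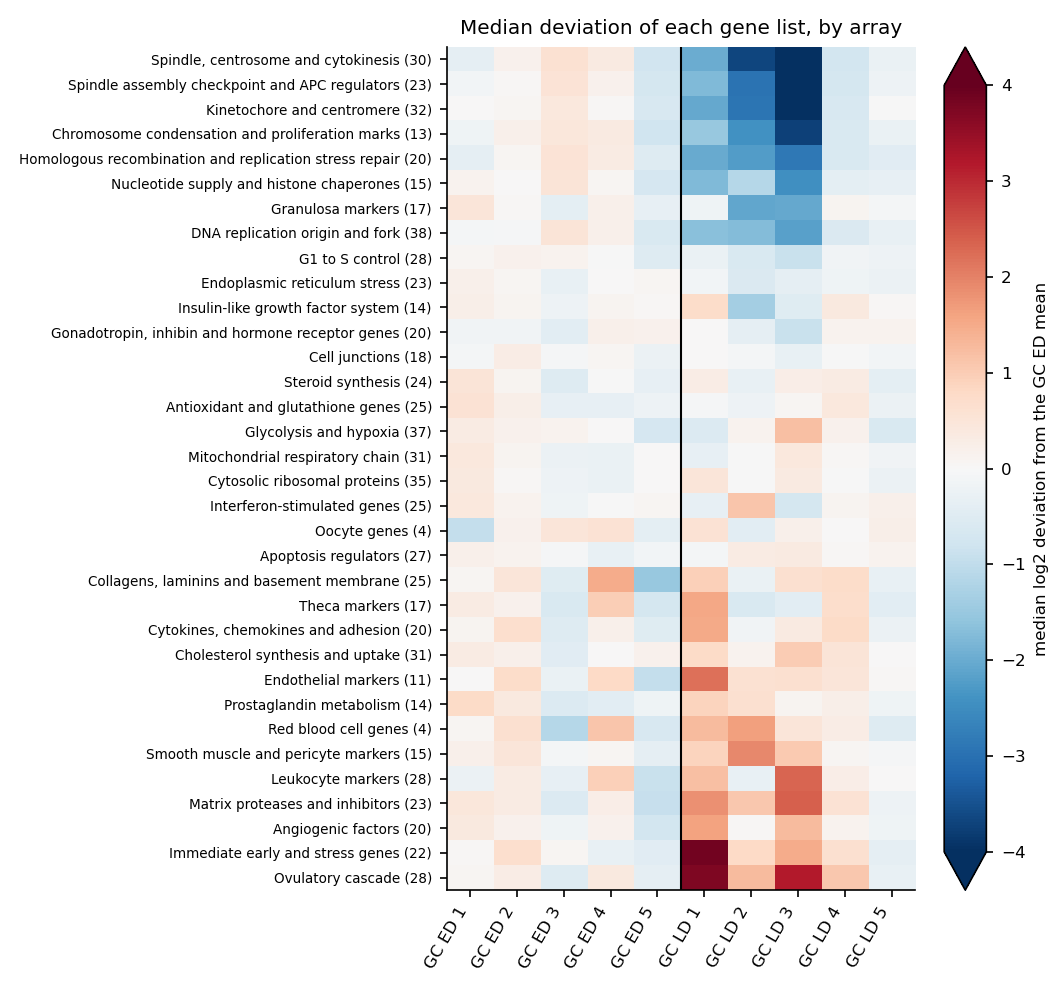
Median log2 deviation of 34 gene lists from the GC ED mean on each of the 10 arrays, with the number of tested genes in parentheses and lists ordered by their difference between groups. The cell division lists are blue on GC LD 1 to GC LD 3 and paler on GC LD 4 and GC LD 5, and the ovulatory cascade is red on every LD array but GC LD 5, where it is -0.31.

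Matrix proteases and their inhibitors had a median of 0.95 (0.28 with normexp), with 9 of 23 higher and 2 lower at an unadjusted p under 0.05. MMP1, an interstitial collagenase, was below background on all ED arrays and lay at -0.81, 1.86, 0.98, -7.05 and -9.36 on the LD arrays, at least 17.8-fold higher (limma adjusted p = 0.201). GC LD 5 read as the ED arrays did, and LOX, which cross-links collagen, had the same pattern with at least 4.61-fold.

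Basement membrane genes had differences of both signs, with a median of 0.30 for the collagen and laminin list (0.19 with normexp and 0.60 without GC LD 2). COL4A1, a chain of type IV collagen, lay at -2.13 to 0.95 on the ED arrays and at 2.22, 4.68, 4.42, 1.62 and -0.60 on the LD arrays (2.64 ± 0.84 SE, limma adjusted p = 0.218), and its partner COL4A2 had 2.56 ± 0.77 SE. LAMA4, a laminin chain, had -2.42 ± 0.93 SE. Among junction genes, with a median of -0.12, the cadherin CDH11 had -2.52 ± 0.67 SE and the gap junction gene GJA1 0.93 ± 0.58 SE, with 4.39 on GC LD 1 and 0.21 on GC LD 3 against 0.72 to 1.63 on the ED arrays.

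Angiogenic factors had a median of 1.05 that became -0.15 with normexp, 0.61 without GC LD 1 and 0.60 without GC LD 3; 4 of 20 were higher and 2 lower at an unadjusted p under 0.05. THBS1, an inhibitor of vessel growth, lay at 5.51, 1.67, 2.23, -0.76 and -1.48 on the LD arrays and at -3.24 to -0.58 on the ED arrays (3.01 ± 1.03 SE, limma adjusted p = 0.228). NRP1, a VEGF co-receptor, had 2.24 ± 0.64 SE, VEGFB -1.03 ± 0.31 SE with all LD arrays below the ED range, and VEGFA -0.37 ± 0.59 SE, with -4.57 on GC LD 2 as its lowest value.

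Cytokines, chemokines and adhesion genes had a median of 0.39, which was 0.02 with normexp. Interferon-stimulated genes had 0.12, which was -0.03 with normexp or quantile normalization. CXCL1, a chemokine for neutrophils, had 2.55 ± 0.85 SE. ISG15, a ubiquitin-like protein induced by interferon, lay at 2.43, 3.51, 3.70, 0.41 and -0.56 on the LD arrays and at -1.51 to -0.20 on the ED arrays (2.65 ± 0.78 SE, limma adjusted p = 0.203), while 3 members of its list were higher and 3 lower at an unadjusted p under 0.05.

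Metabolic lists had medians near that of all features, some of which changed sign between scalings: 0.04 for glycolysis and hypoxia, 0.05 for the respiratory chain, 0.11 for cytosolic ribosomal proteins and 0.02 for antioxidant and glutathione genes. Single members stood out by their values. ENO2, an enolase, lay at -6.71 to -5.04 on the ED arrays and at -1.25, -0.28, 1.23, -3.95 and -5.15 on the LD arrays (4.06 ± 0.92 SE, limma adjusted p = 0.166), and GPX3, the secreted glutathione peroxidase, lay at -0.37, 0.01, 0.65, -4.23 and -4.30 on the LD arrays and at -6.22 to -3.61 on the ED arrays (3.26 ± 0.96 SE, adjusted p = 0.201). The endoplasmic reticulum stress list had a median of -0.34, with 5 of 23 lower and none higher at an unadjusted p under 0.05; CALR, the chaperone calreticulin, had -0.61 ± 0.23 SE. Apoptosis regulators had a median of 0.23 (-0.10 with normexp), and MCL1, an anti-apoptotic member of the BCL2 family, had 1.24 ± 0.49 SE with 4 of 5 LD arrays above the ED range.

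The spread between arrays was uneven across lists. The median SD over the LD arrays was 2.08 for the ovulatory cascade, 2.05 for kinetochore genes, 1.96 for matrix proteases, 1.88 for granulosa markers and 1.73 for immediate early genes, against 0.63 over all features. Over the ED arrays the same lists had 0.67, 0.39, 0.72, 0.40 and 0.52, against 0.42 over all features. Ribosomal proteins had 0.31 in LD and 0.24 in ED, and the respiratory chain 0.35 and 0.29.

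Of the genes steady over the ED arrays, the 12 of largest SD over the LD arrays included NDC80, CENPF, NEK2, CENPI, DEPDC1 and CDC45, all of the cell cycle, with MXD3 and the DNA glycosylase NEIL3. They were named for that spread, so it is a description. CENPF, a kinetochore-associated protein, lay at -2.27, -5.13, -8.94, -0.76 and -0.03 on the LD arrays and at -0.34 to 0.41 on the ED arrays. RAB11FIP4, a Rab11 effector, lay at 1.14, -5.17, -5.26, 1.02 and 0.68 on the LD arrays and at 0.41 to 0.91 on the ED arrays. GC LD 1 and GC LD 4 were just above the ED range, and GC LD 2 and GC LD 3 were near the PO mean of -5.07. SERPINI1, the gene of neuroserpin, EPS8, an actin regulator, and PLPP4 were the members with a higher LD mean; SERPINI1 lay at 1.62, 3.58, 3.14, -3.10 and -5.34 on the LD arrays and at -5.43 to -4.31 on the ED arrays.

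**Figure D5:**
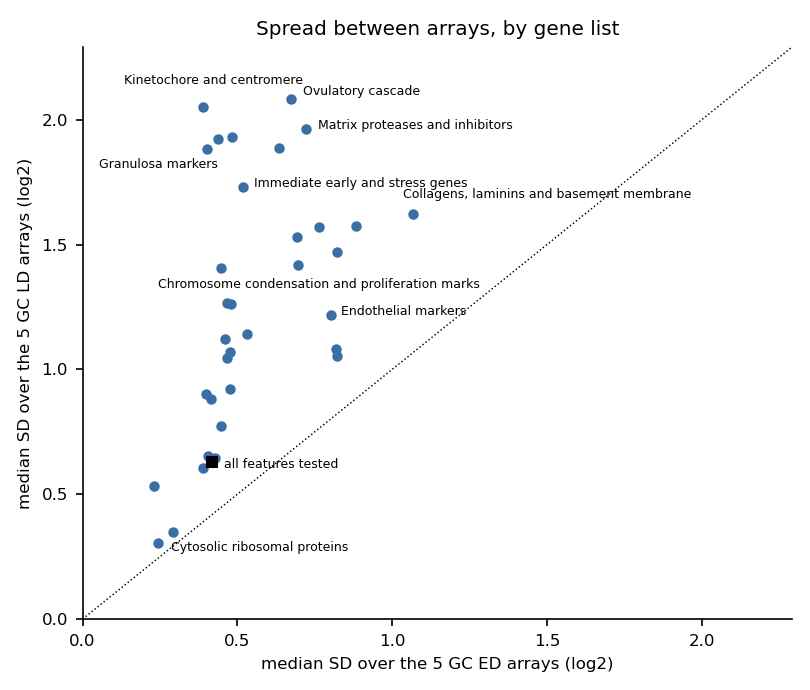
Median SD over the 5 GC LD arrays (vertical axis, log2) against that over the 5 GC ED arrays (horizontal axis, log2) for 34 gene lists (circles) and all features tested (square); the dotted line marks equal SD. The ovulatory cascade (2.08 against 0.67) and kinetochore genes (2.05 against 0.39) are far above the line, and ribosomal proteins (0.31 against 0.24) near it.

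Slides were balanced, since each of 5 slides held 1 LD and 1 ED array, and the difference could be taken within each. Of all features, 1944 (8.05%) were higher and 1478 (6.12%) lower at LD on all 5 slides. Within slides, 3800 features were at least 2-fold higher and 4256 lower on the slide of GC LD 1, 3875 and 5391 on that of GC LD 2, 5073 and 4757 on that of GC LD 3, 1612 and 1814 on that of GC LD 4, and 1539 and 825 on that of GC LD 5. The called SOD2 probe was higher on each slide, by 3.06, 3.16, 3.16, 3.18 and 3.83. CAV1 was higher by 5.56, 4.57, 5.23, 1.74 and 2.70. With the slide as a fixed block 2 features were called, and with it as a random block 1.

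The calls depended on GC LD 5 more than on any other array left out, and nothing in its label sets it apart. Of the 10 arrays it had the highest 75th percentile of processed signal (1718, against 785 to 1526). It also had the most saturated spots (355, against 54 to 228), and the part of either was not tested. Without GC LD 5, 107 of the 195 features named by rule passed in addition to the SOD2 probe, against 5.14% of all features. Most were named for a small p in the same comparison, so nothing is read from that count. Among them PCOLCE2 rose by 7.33 on the log2 scale (limma adjusted p = 0.000864), HAS2, below background on all ED arrays, had the same adjusted p, and MKI67 fell by 3.73 (adjusted p = 0.0311). FSHR at -3.81 (adjusted p = 0.0557), CCNB1 at -2.82 (0.0951) and STAR at 3.28 (0.0782) missed the threshold there too. Since GC LD 5 is the LD array nearest to the ED mean, these p-values show dependence on it and add no support. On the 10 arrays alone, without the PO arrays in the estimate of the spread, no feature was called with all arrays and 139 without GC LD 5.

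The same step in the theca wall was compared with that in granulosa cells. In the interaction of stage and cell type, tested on all 34 arrays, 0 of 27799 features (0%) passed an adjusted p of 0.05 and 2125 had an unadjusted p under 0.05. CAV1 had the smallest p: 3.96 in granulosa cells and -0.37 in the theca wall, an interaction of 4.33 ± 0.75 SE (limma adjusted p = 0.0624). The kinetochore list had medians of -2.17 in granulosa cells and -0.88 in the theca wall, the spindle list -2.28 and -1.0, and the ovulatory cascade 1.78 and 0.48. Leaving out GC LD 5 gave 273 called features and leaving out GC LD 4 gave 9.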

How the data were processed

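Total RNA of 34 samples was hybridised to single-colour Agilent arrays, 1 per sample. The scanner files hold intensity values, background-subtracted by the authors with Agilent Feature Extraction 9.5.3.1 per the file headers (9.1 per the submitters' processing notes). The authors also deposited a table of log2 values with no normalization named in the labels or headers used here. On the 10 arrays it correlated with the scaled values at r of 0.983 to 0.991, with medians of 7.36 to 7.40, and served as an alternative.

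Spots flagged as outliers and controls did not enter, and each array's 75th percentile was subtracted from the log2 processed signal. Of 43603 probes, 22596 received a symbol from the files or from RefSeq names, and a gene with several probes was represented by the probe of highest mean. Features detected above background on 5 or more of the 15 granulosa arrays, with at least 2 values in each stage, were fitted with limma 3.58.1 in R 4.3.3 (lmFit and eBayes, group means for ED, LD and PO), with Benjamini-Hochberg adjustment over all 24787 features and a threshold of 0.05. The interaction with theca wall used all 34 arrays. Genes were named by rule: every called feature, the 12 higher and 12 lower with the smallest p, up to 4 per list by p, a set of follicle genes, and the 12 with the largest SD over LD arrays among those steady in ED. The comparison, the gene lists and these rules were chosen with earlier results of these data known. The alternatives were other scaling, background correction, filters, arrays in the fit, slide as a block, array weights and leaving out each array. Scripts were tested on simulated data. The number of arrays limits the precision. The limma p-values set a difference of means against a spread pooled over the groups of the fit, although LD was wider than ED. They treat the arrays as independent, which the labels do not settle.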

Additional observations from a re-analysis of the deposited data

Results flagged for a closer look

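In 13 of 422 groups of 5 values tested (3.08%), 1 array stood apart from the other 4 by Dixon's test; chance gives about 1 in 20. None of these was explained further, and levels are log2 over the 75th percentile of the array.

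Among LD arrays, MXD1 was -4.84 on GC LD 5 against -7.19 to -6.65 on the others. PANX3 was -7.01 on GC LD 2 against -8.65 to -8.21, all without a reading well above background. The median deviation of the endothelial list was 2.20 on GC LD 1 against 0.04 to 0.63.

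GC ED 5 was the array apart in 6 genes, each time as the lowest. SLC25A35 was -0.52 there against 0.41 to 0.55 on the other ED arrays, and HSD17B1 was 0.94 against 3.21 to 4.01. GLI1 was -6.32 against -3.57 to -2.64, and NASP was 2.14 against 2.70 to 2.91. VEGFA was -2.78 against -1.90 to -1.59, and EPS8 was -4.42 against -3.68 to -3.47.

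On the remaining ED arrays, TNFAIP6 was 0.13 on GC ED 3 against -7.34 to -5.60. CDKN1B was -3.20 on GC ED 1 against -4.25 to -4.22. HPGD was -8.13 on GC ED 1 against -9.41 to -9.06, below background throughout. RPL35 was 4.12 on GC ED 4 against 4.66 to 4.85.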

How the results depend on the processing

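The number of called features was 1 in the fit as reported and 0 with normexp (2916 at an unadjusted p under 0.05), with the deposited table (3961), among features well above background on all 10 arrays (2876) and in the fit on the 10 arrays alone (3347). It was 2 with slide as a fixed block and 1780 in the fit on all 34 arrays. Leaving out 1 array gave 1 to 1274 calls, with 8 without GC LD 4 and 1274 without GC LD 5; on the 10 arrays alone, an alternative added after the data were seen, leaving out an LD array gave 0 to 139. Features whose groups did not overlap numbered 411 to 1819 when 1 array was left out, against 353, a number that leaving out an array can only raise. The interaction gave 4 calls with the deposited table, 1 with slide as a random block and 0 to 273 when 1 array was left out, against 0. The larger spread of LD arrays was 0.10 with normexp, against 0.36. A change of sign was counted only where the difference as reported exceeded its SE. With normexp 7 such named genes changed sign. They were MXD1 (-0.12), HHIP (-0.036), ERG (-0.21), PTGIS (-0.0087), BOK (-0.15), NOBOX (-0.15) and CDKN1A (-0.19), and the cause was not tested. Of the values of 195 named features under all alternatives, 3659 had no counted change of sign and kept their side of the threshold. A call was lost in 3 (the SOD2 probe with normexp, the deposited table and the 10 arrays alone). Another 231 gained one, 121 of them on 34 arrays and 107 without GC LD 5. List medians moved by more than 1 SD over the LD arrays in 71 values and by less in 575. The labels carry no replicate numbers to pair arrays by; the pairing by slide, which holds 1 array of each group, is the fixed block above. Saturation limits FST, INHA, INHBA, HSD3B2 and CYP19A1, and readings near background limit the faint genes.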

Other observations

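Some of the smallest p-values belonged to probes without a gene symbol, whose descriptions are given here as values only. A probe described as similar to a short form of galectin 9, a lectin that binds galactosides, lay at -3.17, -2.88, -1.17, -2.62 and -1.91 on the ED arrays and at -8.30, -6.59, -9.08, -7.03 and -4.60 on the LD arrays. All LD arrays were below all ED arrays, and the difference was -4.77 ± 0.75 SE (limma adjusted p = 0.166).

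Probes described as similar to an immunoglobulin lambda variable segment, a part of antibody light chains, gave differences of 4.33 and 3.89. On the first of them the LD arrays read -1.60, -2.58, -4.20, -5.44 and -6.24, and 1 of 5 ED arrays was well above background. The limma adjusted p was 0.166 for both. Of the B cell markers listed, CD79B was well above background on none of the 10 arrays and MS4A1 on all 10.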
